A study of Mus musculus with 6 samples.

Results

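G2/M and mitosis genes encode the proteins that take a cell from the end of DNA replication through division. The 53 genes described here were chosen by name, and each was found under its own name in all 6 libraries. All 53 passed the filter on low counts, which kept 14236 of 37732 genes. They were grouped by the step their proteins carry out, with 10 entry kinases and cyclins, 4 ubiquitin-system proteins of mitotic exit, 8 kinetochore, centromere and checkpoint proteins, 3 chromosomal passenger proteins, 14 spindle motors and microtubule proteins, 5 cytokinesis proteins and 9 proteins of chromosome and chromatin structure.

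Entry into mitosis is driven by the kinase Cdk1 bound to A- and B-type cyclins, whose activity is amplified by polo-like and Aurora kinases. Condensins and topoisomerase II shape the chromosomes, kinetochores attach them to the spindle, and the anaphase-promoting complex (APC/C), a ubiquitin ligase, then destroys cyclin B and securin so that the sister chromatids part. Transcripts of most of these genes are low in G1 and peak in G2 and M, so in a mixed population their level depends on the share of cells in those phases. In B-cell acute lymphoblastic leukaemia (B-ALL) the blasts are cycling B-cell precursors.

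The leukaemia was started in C57BL/6 mice by transplanting lineage-negative fetal liver cells that expressed N-Myc together with a GFP reporter, so all 3 groups carry the same oncogene. When about 60% of blood cells were GFP-positive, mice stayed normally fed (control) or were fasted for 1 day or 2 days. GFP+B220+ leukaemia cells were sorted from bone marrow, and their RNA was sequenced as 51-bp single reads. The sources used here do not give age, sex, the number of mice behind a library or the promoter driving N-Myc. Each group has 2 libraries, titled rep1 and rep2 and called run 1 and run 2 here. The design text counts them as 1 sample per group. Within groups, squared differences between runs were a median of 1.33 to 1.36 times their sampling variance over all genes, against 6.62 to 20.2 between groups of the same run number. Each group was therefore counted as 1 sample (n = 1) sequenced in 2 runs, no test was made, and differences between groups lack a check in further mice. Values are given in both runs, and their spread was taken as technical, which the titles do not state.

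Total gene reads ranged from 19368326 to 45862844 per library. Mycn, the driving oncogene, lay between 2098 and 2266 CPM (gene reads scaled to library size with TMM factors) in the 6 libraries, and the B-cell genes Cd79a, Cd79b and Pax5, and Ptprc, which encodes the B220 antigen, were detected in all of them. The 53 genes had between 185 and 51811 reads per library. For the 53 genes alone, the ratio of squared run difference to sampling variance had a median of 1.31 in control, 1.05 at 1 day and 2.48 at 2 days, where run 2 lay somewhat below run 1. Reads that map to several places bear on 5 members with under 80% unique reads: Cks2 (22.3% unique), Hmgb2 (40.0%), Ccnb1 (45.8%), Tubb4b (48%) and Ccna2 (76.5%). A further limit is that 15 members share exon bases with another annotated gene, among them Cdc20 with Elovl1, Ube2c with Tnnc2 and Tacc3 with Tmem129, and the sources used here do not say whether counting used strand.

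Many promoters of this class carry the cell cycle genes homology region, with the letters TTTGAA or TTCGAA, to which the MuvB complex binds with its partners B-Myb and FoxM1, and CCAAT boxes, which bind NF-Y. Promoter windows of 300 bases, from 250 before to 50 after the start of transcription, were available in RefSeq (build GRCm38.p6) for 46 of the 53 genes. On either strand, TTTGAA or TTCGAA occurred in a window of 35 of the 46 genes (76.1%), against 21.7% of 27018 genes with a window and 16.5% of those tested for expression. CCAAT occurred in 36 of 46 (78.3%), against 41.1% of all genes, and 2 or more times in 28 (60.9%), against 13.3%. Both kinds were present in 29 of 46 (63.0%), against 8.61%. The windows shown are those of Cdk1 and Ccnb1, the kinase and cyclin of mitotic entry, of Ube2c, the member nearest to its control level at 2 days, and of Gas2l3 and Ncapd2, the lowest members at 2 days. They lie in GRCm38.p6 as follows: Cdk1 at chr10:69352863-69353162 on the minus strand, Ccnb1 at chr13:100786437-100786736 on the minus strand, Ube2c at chr2:164769679-164769978 on the plus strand, Gas2l3 at chr10:89443918-89444217 on the minus strand and Ncapd2 at chr6:125191537-125191836 on the minus strand. Each is written 5′ to 3′ on the gene's own strand, with the matches in capitals. On the opposite strand TTTGAA reads TTCAAA and CCAAT reads ATTGG, and in Ube2c 2 of the 6 CCAAT matches overlap in opposite orientation.
Cdk1: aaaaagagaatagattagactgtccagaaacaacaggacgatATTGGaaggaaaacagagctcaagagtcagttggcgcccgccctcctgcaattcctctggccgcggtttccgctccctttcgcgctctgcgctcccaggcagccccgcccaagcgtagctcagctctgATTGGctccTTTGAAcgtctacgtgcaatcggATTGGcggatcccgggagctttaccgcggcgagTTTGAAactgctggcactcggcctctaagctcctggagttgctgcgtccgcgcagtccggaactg
Ccnb1: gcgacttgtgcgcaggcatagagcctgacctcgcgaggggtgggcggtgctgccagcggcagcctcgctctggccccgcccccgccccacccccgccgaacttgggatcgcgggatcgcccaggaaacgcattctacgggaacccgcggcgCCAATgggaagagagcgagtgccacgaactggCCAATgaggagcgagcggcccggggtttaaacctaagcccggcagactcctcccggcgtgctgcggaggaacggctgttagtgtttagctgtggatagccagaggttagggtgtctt
Ube2c: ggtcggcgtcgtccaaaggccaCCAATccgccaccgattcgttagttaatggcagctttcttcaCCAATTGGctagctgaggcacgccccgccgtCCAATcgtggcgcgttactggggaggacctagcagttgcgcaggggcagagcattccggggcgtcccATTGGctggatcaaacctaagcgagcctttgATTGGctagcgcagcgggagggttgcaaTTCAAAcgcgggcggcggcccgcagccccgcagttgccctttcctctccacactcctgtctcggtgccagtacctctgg
Gas2l3: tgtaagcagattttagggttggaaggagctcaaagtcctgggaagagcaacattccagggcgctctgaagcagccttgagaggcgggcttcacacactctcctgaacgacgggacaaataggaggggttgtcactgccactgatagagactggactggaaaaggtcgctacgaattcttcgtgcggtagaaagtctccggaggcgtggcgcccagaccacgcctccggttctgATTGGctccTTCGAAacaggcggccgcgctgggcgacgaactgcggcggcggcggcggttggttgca
Ncapd2: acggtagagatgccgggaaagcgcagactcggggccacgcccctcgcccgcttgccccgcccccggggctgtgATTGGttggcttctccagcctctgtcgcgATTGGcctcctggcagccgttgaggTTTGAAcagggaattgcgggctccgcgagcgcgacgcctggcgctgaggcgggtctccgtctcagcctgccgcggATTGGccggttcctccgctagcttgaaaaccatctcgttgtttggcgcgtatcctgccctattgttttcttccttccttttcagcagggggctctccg

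In the Cdk1 window the TTTGAA matches begin 71 and 15 bases before the start, beside 3 CCAAT matches. The Ccnb1 window holds 2 CCAAT matches and neither TTTGAA nor TTCGAA. In Gas2l3 the TTCGAA match begins 8 bases before the start and in Ube2c the match begins 29 bases before it, while in Ncapd2 it begins 123 bases before. Members with TTTGAA or TTCGAA (35 genes) had median log2 folds of -0.20 at 1 day and -0.30 at 2 days against control. Members without (11 genes) had -0.16 and -0.33. For 2 days against 1 day the medians were -0.08 with and -0.15 without. Which set was lower thus differed between comparisons, and the difference was not tested.

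As a group, the mitotic genes were slightly to moderately lower in fasted than in fed leukaemia, and more so at 2 days. Their reads made up 1.40% and 1.42% of gene reads in the control runs, 1.2% and 1.19% at 1 day, and 1.10% and 1.07% at 2 days. The runs of the 3 groups did not overlap in this sum. The median member was lower by a log2 fold of -0.20 at 1 day and of -0.31 at 2 days, while the median of all genes tested was 0.01 and -0.00. In these sorted bulk samples, fewer cells in G2 and M and less of each transcript per cell cannot be told apart.

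At 1 day, 52 of the 53 genes were below control, and both runs lay below both control runs for each of these 52 (98.1% of members, against 32.4% of all genes tested). A gene is called lower here when the log2 fold of its mean CPM and that of each run were at least 1.2-fold down. By this rule 12 members (22.6%) were called lower and 0 higher, against 9.31% of all genes tested that were lower and 12.1% that were higher. At 2 days all 53 were below control in the mean, and both runs lay below both control runs for 51 (all but Ube2c and Psrc1; 96.2% of members, against 39.1% of all genes). Of the 53, 28 (52.8%) were called lower and 0 higher, against 20.2% and 19.9% of all genes. At 1.5-fold, 1 member was lower at 1 day (Gas2l3; 2.75% of all genes) and 2 were lower at 2 days (Gas2l3 and Ncapd2; 10.2% of all genes), so the shift was small in each gene and shared by many. Among the 8675 genes with a mean level at or above that of the lowest member, 4.97% and 16.4% were lower at 1.2-fold in the 2 comparisons. The log2 folds of the 2 runs differed by a median of 0.03 at 1 day and 0.06 at 2 days over the members, and by at most 0.14 (Psrc1) and 0.15 (Gtse1).

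**Figure D1:**
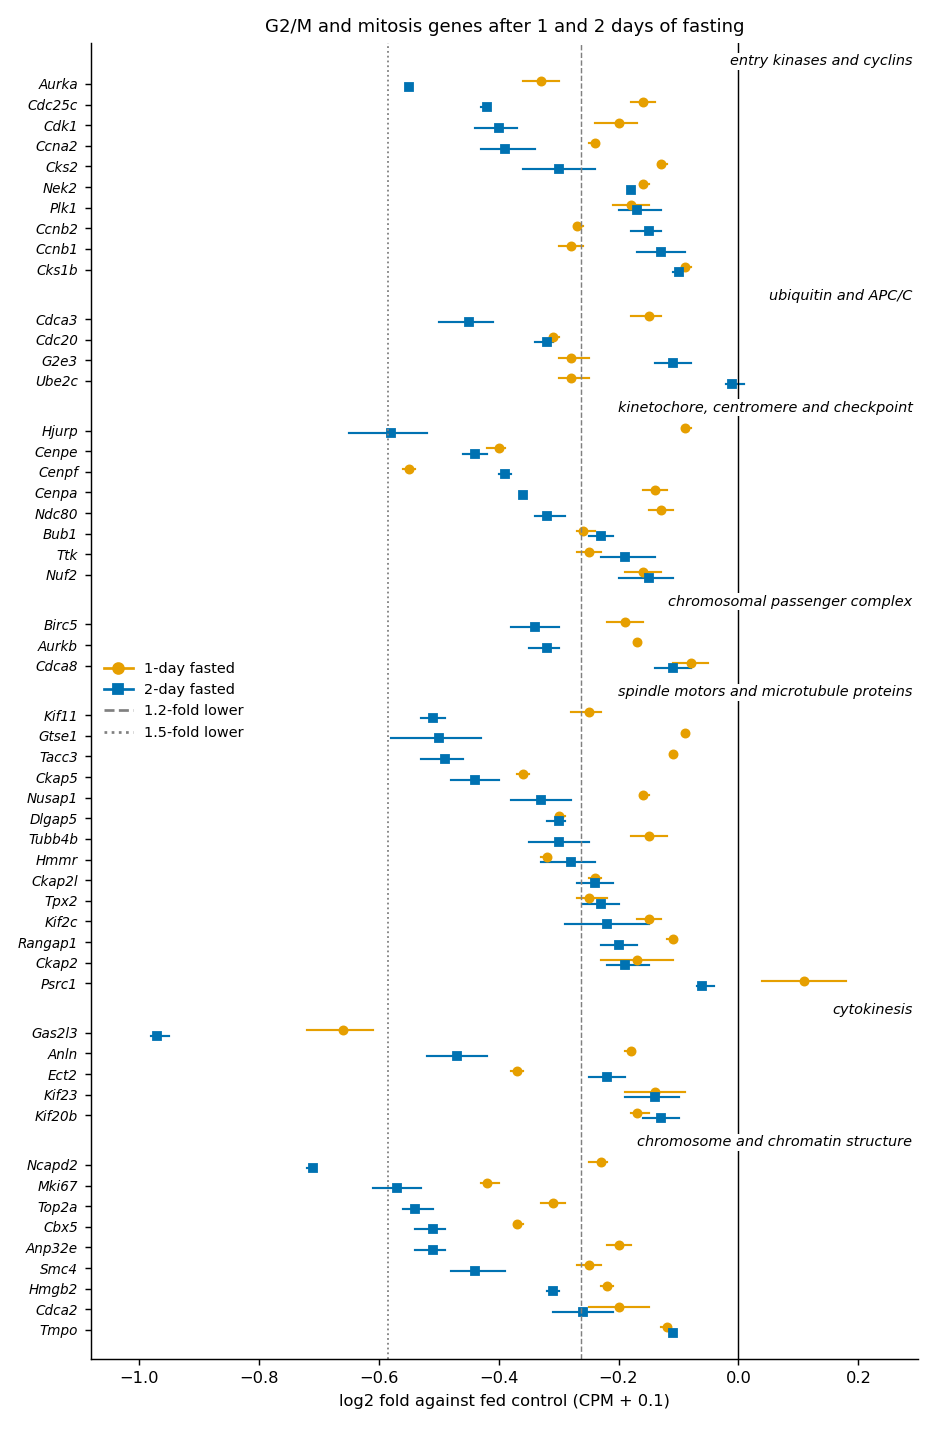
Log2 fold of each of the 53 members against fed control, by role, at 1 day (circles) and 2 days (squares). Symbols show the fold of the group mean, lines join the folds of run 1 and run 2, and the vertical lines mark 1.2-fold and 1.5-fold lower. Nearly all symbols lie left of 0, with Gas2l3 lowest at -0.66 and -0.97 and Psrc1 at 0.11 and -0.06.

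**Figure D2:**
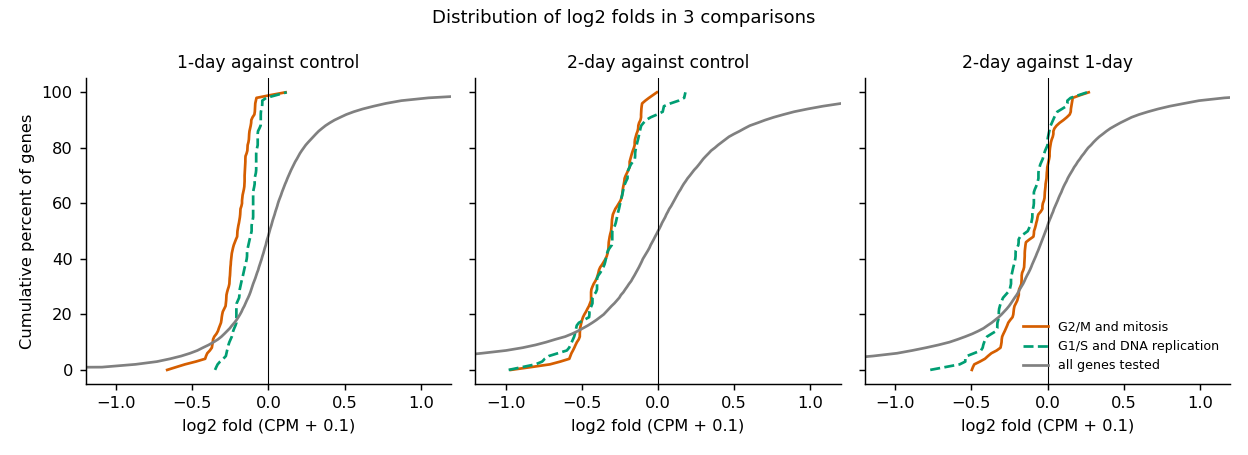
Cumulative percent of genes (y axis) by log2 fold (x axis) for the 53 G2/M and mitosis genes, 43 G1/S and DNA replication genes and all 14236 genes tested, in 3 comparisons. At 1 day the mitotic curve lies left of the G1/S curve (medians -0.20 and -0.11), at 2 days the curves lie together (-0.31 and -0.30), and the 3 comparisons share samples.

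Of all genes tested, 9.31% were called lower at 1 day and 20.2% at 2 days, which is the background for each role below. Among the entry kinases and cyclins, 1 of 10 was called lower at 1 day, near the share of all genes. At 2 days 4 of 10 were called lower. The medians of this role were -0.19 at 1 day and -0.24 at 2 days. Aurka, the Aurora kinase of centrosome maturation and spindle assembly, was the lowest at 2 days. It stood at 117 and 111 CPM in the control runs, 90.8 and 89.5 at 1 day, and 79.8 and 75.2 at 2 days, giving log2 folds of -0.33 and -0.55. The groups of Aurka did not overlap and stepped down at each time. Cdk1, the mitotic kinase itself, measured 212.2 and 216.0 CPM in control, then 188.8 and 182.7 at 1 day and 164.2 and 159.5 at 2 days. Its log2 fold was -0.20 at 1 day, short of the call, and -0.40 at 2 days, with all runs ordered control, 1 day, 2 days. The other 2 called lower at 2 days were Cdc25c, the phosphatase that activates Cdk1 (-0.42), and Ccna2, cyclin A2 (-0.39).

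The B-type cyclins had another order of groups than their kinase, a difference that was not tested. Ccnb1 stood at 275.3 and 280.6 CPM in control, then 230.2 and 227.6 at 1 day and 258.2 and 250.2 at 2 days. Both 2-day runs thus lay between the 1-day and the control runs, with log2 folds of -0.28 at 1 day and -0.13 at 2 days. Ccnb2 showed the same order, with -0.27 and -0.15. Plk1, the polo-like kinase, was at -0.18 and -0.17, Nek2, a kinase of centrosome separation, at -0.16 and -0.18, and none of these 4 was called in either comparison. Cks1b, a small Cdk-binding subunit, had the highest 2-day value of this role (-0.10). Its relative Cks2 was at -0.13 and -0.30 on total reads, but on its unique reads, 22.3% of the total, the values were 0.10 and -0.53, so its direction at 1 day depended on the read class.

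Of the 4 ubiquitin-system genes, Cdc20, the APC/C activator, was called lower at both times (-0.31 and -0.32). Ube2c, the ubiquitin-conjugating enzyme that works with APC/C, stood at 208.9 and 207.1 CPM in control, then 169.3 and 173.9 at 1 day and 205.8 and 208.0 at 2 days. The 1-day runs were below all others, while the control and 2-day runs overlapped. Its log2 folds were -0.28 at 1 day, with 1 of the 2 runs past 1.2-fold, and -0.01 at 2 days, with a ratio of pooled reads of 0.995 (95% exact interval 0.970 to 1.02, counting error only). Cdca3, known from frog egg extracts to promote destruction of the Cdk1 inhibitor Wee1, was nearer control at 1 day than at 2 days. Its log2 fold was -0.15 at 1 day and -0.45 at 2 days. G2e3, a ubiquitin ligase, was at -0.28 and -0.11.

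In the kinetochore, centromere and checkpoint group 2 of 8 were called lower at 1 day and 5 of 8 at 2 days, with medians of -0.20 and -0.34. Cenpf, a large protein of the outer kinetochore (chr1:189640599-189688086 in mm10, minus strand), had the second lowest 1-day value of all members. It measured 190.5 and 184.2 CPM in control, then 128.9 and 126.5 at 1 day and 145.9 and 139.5 at 2 days, for log2 folds of -0.55 and -0.39. The 1-day runs were the lowest and the 2-day runs lay between them and control. Cenpe, the kinetochore motor that brings chromosomes to the spindle equator, was at -0.40 and -0.44. Hjurp, the chaperone that loads the centromeric histone Cenpa (chr1:88262471-88277633, minus strand), had the opposite time course. It stood at 459.3 and 464.5 CPM in control, then 430.8 and 439.7 at 1 day and 320.8 and 295.8 at 2 days. Nearly all of its difference thus appeared between 1 and 2 days, with log2 folds of -0.09 and -0.58. Cenpa, its client, was at -0.14 and -0.36, and Ndc80, the microtubule-binding kinetochore subunit, at -0.13 and -0.32. The checkpoint kinases Bub1 (-0.26 and -0.23) and Ttk (-0.25 and -0.19) and the Ndc80 partner Nuf2 (-0.16 and -0.15) were not called at either time.

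The chromosomal passenger complex, which corrects faulty attachments and guides cytokinesis, had no member called at 1 day and 2 of 3 (66.7%) at 2 days. Its kinase Aurkb was at -0.17 and -0.32 and its subunit Birc5, also known as survivin, at -0.19 and -0.34, while Cdca8, the subunit borealin, was at -0.08 and -0.11.

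Among the 14 spindle genes, 3 (21.4%) were called lower at 1 day and 6 (42.9%) at 2 days, with medians of -0.16 and -0.29. Kif11, the motor that pushes spindle poles apart, stood at 470.1 and 474.1 CPM in control, then 401.3 and 390.2 at 1 day and 334.7 and 328.4 at 2 days. Its runs were ordered control, 1 day, 2 days without overlap, and its log2 fold at 2 days, -0.51, was the lowest of this role. Ckap5, a microtubule polymerase, was called lower at both times (-0.36 and -0.44), as was Dlgap5, a spindle assembly protein (-0.30 and -0.30). Hmmr, a spindle protein, was called at 1 day (-0.32) and not at 2 days (-0.28). The remaining 3 called at 2 days were Gtse1 (-0.50), a microtubule-associated protein, Tacc3 (-0.49), the partner of Ckap5 on the spindle, and Nusap1 (-0.33). Gtse1 and Tacc3 had been near control at 1 day, at -0.09 and -0.11.

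Psrc1, a microtubule protein and the least abundant member, had the highest values of this role. It stood at 9.44 and 9.91 CPM in control, then 10.7 and 10.2 at 1 day and 8.96 and 9.63 at 2 days. The 2-day and control runs overlapped, and the counting interval of its ratio held 1 in both comparisons with control. The other 6 spindle members (Tubb4b, Ckap2l, Tpx2, Kif2c, Rangap1 and Ckap2) were not called at either time and lay between -0.30 and -0.19 at 2 days.

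In cytokinesis, 2 of 5 (40.0%) were called lower at each time. Gas2l3, a linker of actin and microtubules at the midbody (chr10:89408823-89443967, minus strand), was the lowest of all 53 members. It stood at 28.3 and 26.9 CPM in control, then 17.2 and 17.6 at 1 day and 14.3 and 13.9 at 2 days. The 3 groups were clearly apart, with log2 folds of -0.66 and -0.97 and a ratio of pooled 2-day to control reads of 0.516 (95% exact interval 0.474 to 0.561). Ect2, the exchange factor that activates RhoA at the cleavage furrow, was called lower at 1 day (-0.37) and not at 2 days (-0.22). Anln, the scaffold protein anillin, was at -0.18 and -0.47, whereas the motors Kif23 (-0.14 and -0.14) and Kif20b (-0.17 and -0.13) were the closest to control.

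Genes of chromosome and chromatin structure were the lowest role at 2 days, with medians of -0.23 at 1 day and -0.51 at 2 days. Of the 9, 3 (33.3%) were called lower at 1 day and 7 (77.8%) at 2 days. Ncapd2, a condensin I subunit (chr6:125168009-125191595, minus strand), stood at 653.0 and 650.9 CPM in control, then 550.2 and 560.4 at 1 day and 396.7 and 397.6 at 2 days. Its runs were almost equal within each group, and the log2 folds were -0.23 and -0.71. Mki67, the proliferation antigen Ki-67 that coats mitotic chromosomes, stood at 1217 and 1246 CPM in control, then 921.6 and 925.1 at 1 day and 840.6 and 818.9 at 2 days. Most of its difference was present at 1 day, with log2 folds of -0.42 and -0.57. Top2a, topoisomerase II alpha, was at -0.31 and -0.54, and the heterochromatin protein gene Cbx5 at -0.37 and -0.51. Smc4, the condensin ATPase, reached -0.44 at 2 days, Anp32e, a chaperone of the histone variant H2A.Z, -0.51, and Hmgb2, a DNA-bending protein, -0.31. Tmpo, which encodes lamina-associated polypeptides, was the highest of the role (-0.12 and -0.11), and Cdca2, a phosphatase-targeting subunit, was not called (-0.20 and -0.26).

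**Figure D3:**
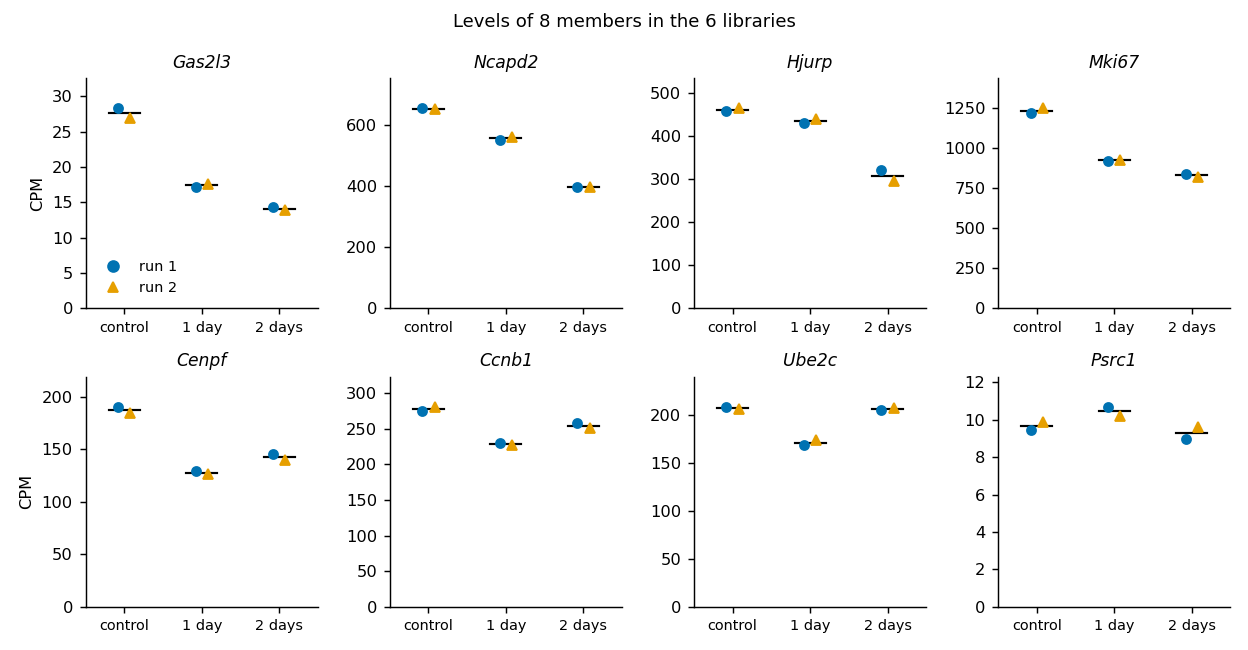
CPM (y axis, from 0) of 8 members in the 6 libraries by group (x axis), with circles for run 1, triangles for run 2 and bars for the group mean. Gas2l3, Ncapd2, Hjurp and Mki67 are lowest at 2 days, Cenpf and Ccnb1 are lowest at 1 day, Ube2c is at 206.9 CPM at 2 days and 208.0 in control, and Psrc1 varies between 8.96 and 10.7.

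From 1 to 2 days the members differed in direction. The median log2 fold of 2-day against 1-day samples was -0.09 (all genes -0.01). It was below 0 for 39 of 53 members and for 7404 of all 14236 genes. By the call rule 7 were lower (13.2% of members, against 17.5% of all genes and 12.3% of those at or above the lowest member's level). None was called higher (14.0% of all genes). At 1.5-fold 0 members were lower (8.75% of all genes). The share called lower was thus near the background. The 7 were Hjurp (-0.50), Ncapd2 (-0.48), Gtse1 (-0.41), Tacc3 (-0.38), Anp32e (-0.31), Cdca3 (-0.30) and Gas2l3 (-0.30). Both 2-day runs lay below both 1-day runs for 33 members (62.3%, against 39.8% of all genes). Both lay above for 10 (18.9%, against 34.0% of all genes), among them Ube2c (0.27), G2e3 (0.17), Cenpf (0.16), Ccnb1 (0.15), Ect2 (0.15) and Ccnb2 (0.11), none past the call. In both runs, 35 members (66.0%) were ordered control, 1 day, 2 days from high to low, as were 19.7% of all genes. The order control, 2 days, 1 day was seen for 11 members (20.8%; 3.11% of all genes): Ccnb1, Ccnb2, Plk1, G2e3, Bub1, Ttk, Cenpf, Tpx2, Ect2, Kif20b and Tmpo. Because the 3 comparisons share samples, these orders describe the values and carry no test.

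Levels were compared between genes as RPKM (reads scaled to exon length and library size), which the authors deposited. In control the members ranged from 2.99 to 425 RPKM with a median of 42.0. Hmgb2 was highest at 429.7 and 420.5 in the 2 runs, followed by Tubb4b, the tubulin beta 4B gene (261.8 and 270.1), Cks2 (179.8 and 181.7) and Anp32e (165.6 and 162.3). At the low end were Dlgap5 (11.2 RPKM in the mean), G2e3 (5.75), Gas2l3 (3.81) and Psrc1 (2.99). Of the 52 pairs of neighbours in this order, 12 had overlapping runs.

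Reads in introns, which come largely from unspliced RNA, were ordered differently in time from exon reads, which was not tested. They were compared for 50 members with at least 50 intron reads per group, both runs summed and averaged over the 3 groups (Birc5, Cdca3 and Psrc1 had fewer). At 1 day the median intron fold was -0.12 and that of exon reads -0.24, with 8 members called lower on introns (16.0%, against 15.4% of 9152 genes). At 2 days the median intron fold was -0.48 and the exon fold -0.29, with 31 called lower (62.0%, against 20.3%). Between 1 and 2 days the intron median was -0.32 and the exon median -0.04, and 21 members were called lower on introns (42.0%, against 15.4%). Over all 9152 genes the intron medians were -0.00, -0.01 and -0.03.

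In single genes the intron reads of Hmgb2 numbered 713 in control, 910 at 1 day and 313 at 2 days over both runs, a 2-day against 1-day log2 fold of -0.95 on scaled reads, where its exon fold was -0.08. Ccna2 had an intron fold of -0.91 and an exon fold of -0.12 in the same comparison. Gas2l3 was the lowest on introns against control, at -1.2 and -1.77, beside -0.61 and -0.87 on exons. By contrast Kif11, with 5252 intron reads in control, was at -0.09 on introns and -0.58 on exons at 2 days, and Ccnb2 was at 0.29 on introns. The share of the members' reads that fell in introns was 4.72% and 4.71% in control, then 5.56% and 5.49% at 1 day and 4.17% and 4.11% at 2 days. The members' intron share was thus highest at 1 day and lowest at 2 days in both runs. The share over all genes was also highest at 1 day in both runs, at 11.7% and 11.4% against 11.2% and 10.8% in control, and at 2 days it was 11.2% and 10.7%.

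**Figure D4:**
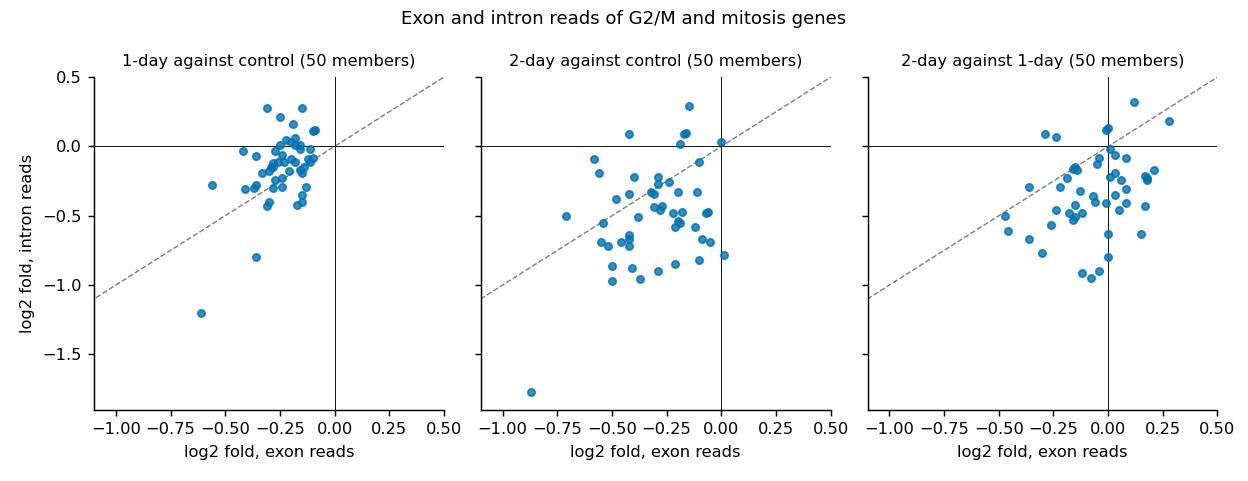
Log2 fold of intron reads (y axis) against log2 fold of exon reads (x axis) for 50 members in 3 comparisons, with 1 point per gene and a dashed line of equal folds. Points lie mostly above the line at 1 day (13 below it), mostly below it at 2 days (36) and mostly below it for 2 days against 1 day (43). Among 9152 genes, not plotted, the intron fold was below the exon fold for 4869, 4860 and 4716.

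The other genes of the pathway, in lists that do not hold the 53, were counted in the same way. Of all genes tested, 9.31% were called lower and 12.1% higher at 1 day, and 20.2% and 19.9% at 2 days. Genes of G1/S and DNA replication had a median of -0.11 at 1 day, with 2 of 43 (4.65%) called lower. At 2 days their median was -0.30, with 22 of 43 (51.2%) called lower and 0 higher. At 1 day the mitotic members' median was therefore further from 0 than that of the replication genes, and at 2 days the medians were alike, a difference that was not tested. In the replication list the DNA replication factor gene Gins2 was the lowest at 2 days (-0.98). Uhrf1, which maintains DNA methylation, was at -0.73 and E2f8, an E2F repressor, at -0.77 at 2 days.

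Condensin, cohesin and separase genes had 4 of 19 (21.1%) called lower and 1 higher at 1 day. At 2 days 13 (68.4%) were lower and 1 higher. The cohesin subunits Smc1a (-0.56) and Rad21 (-0.51) and the condensin II subunit Ncapd3 (-0.53) were among the lowest at 2 days. The 1 higher was Wapl, which releases cohesin from chromatin and is listed under its older name Wapal. It stood at 23.3 CPM in control, 41.1 at 1 day and 110.8 at 2 days, with log2 folds of 0.82 and 2.24. Of 30 other kinetochore and checkpoint genes 5 were lower at 1 day and 13 at 2 days, with Cenpm (-1.11) and Kntc1 (-0.79) lowest, and of 20 other spindle and cytokinesis genes 5 and 8 were lower, with Kif15 (-0.78) lowest. None of these 50 was called higher against control.

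Of 17 APC/C subunits and regulators none was called lower at 1 day and 3 (17.6%) at 2 days, with 1 higher. Fbxo5, the APC/C inhibitor Emi1, was the lowest at -0.81. Of 16 other entry and exit regulators 2 and 4 were called lower. Cdc25b, a phosphatase that activates Cdk1 at the centrosome, was the lowest, with 356.3 CPM in control, 249.5 at 1 day and 124.5 at 2 days, or log2 folds of -0.51 and -1.52. Of 22 genes for MuvB, B-Myb, FoxM1, NF-Y, E2F and pocket proteins, 2 (9.09%) were called lower at 1 day. At 2 days 6 (27.3%) were lower and 1 higher. The lower shares of the lists in this paragraph lay near that of all genes at 2 days (20.2%). Foxm1, the G2/M activator, was at -0.36 between 1 and 2 days (153.5 and 119.8 CPM), and E2f7, an E2F repressor, at -1.03 at 2 days.

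Transcripts of other bone marrow cells were present in the sorted samples and differed between groups. For scale, 9.31% of all genes tested were called lower at 1 day, and 20.2% lower and 19.9% higher at 2 days. The 10 neutrophil markers summed to 998.1 and 1032 CPM in the control runs, 652.6 and 685.1 at 1 day, and 876.6 and 887.4 at 2 days, with 6 called lower at 1 day and 3 lower and 1 higher at 2 days. The 9 erythroid markers measured summed to 349.4 and 369.3 CPM in control, then 444.4 and 467.1 at 1 day and 809.7 and 805.0 at 2 days, with 6 of 9 higher at 2 days. The 7 monocyte and macrophage markers summed to 44.3 and 44.2, 46.6 and 45.2, and 71.1 and 69.1 CPM, with all 7 higher at 2 days. The 8 T and NK cell markers measured summed to between 2.24 and 5.70 CPM, with 5 lower and 1 higher at 2 days. No marker was at 0 in a library. The 8 B lineage markers summed to between 3209.9 and 3434.6 CPM, with 2 lower and 1 higher at 2 days. The part of these cells in the values of the mitotic genes was not tested.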

How the data were processed

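Read counts per gene, in total and unique reads over whole genes, exons and introns, were made by the authors and deposited for each library, as were RPKM values. Reads were aligned with TopHat2 to mm10, as the submitters' processing notes list. No counting program or annotation is named in the sources used here. Run 1 files list 38355 genes and run 2 files 38924. Matching rows by position joined 37429 genes, and matching name plus chromosome joined 303 more. These held 95.4% to 99.96% of gene reads.

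Total gene reads were scaled to CPM with TMM factors (edgeR 4.0.16, R 4.3.3), and genes were kept by filterByExpr (minimum count 10). Log2 folds compare mean CPM with 0.1 CPM added. A gene is called where the mean and each run pass 1.2-fold in 1 direction. With n = 1 no p-value was computed. Intervals are exact conditional binomial at 95% and cover counting error only. Run agreement was measured after scaling within each pair. The call rule was also run on simulated counts with read-sampling noise only and 1.5-fold changes at 2 days. That run does not cover smaller folds or differences between mice.

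Members, lists and the 1.2-fold threshold were chosen with earlier results of these data known. Genes named are those called, up to 25 per comparison, the highest and lowest of each role at 2 days, and up to 4 called genes per other list; further members are given to account for all 53. The background of genes at or above the lowest member's level, the intron comparison, the split of members by promoter letters and the members printed by library were chosen after seeing the data. Promoter windows come from RefSeq. 1 B lineage marker is not reported here. Alternatives were DESeq2 1.42.0 size factors, library totals, no filter, 1 CPM added, unique reads, exon reads, the deposited RPKM, a replicate block and leaving out each library.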

Additional observations from a re-analysis of the deposited data

Results flagged for a closer look

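Psrc1 was above control at 1 day in both runs and below control at 2 days in both runs, with log2 folds of 0.11 and -0.06. The opposite directions at the 2 times drew attention, and the difference between them was not tested. The 95% counting interval of the ratio was 0.960 to 1.19 at 1 day and 0.838 to 1.06 at 2 days.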

How the results depend on the processing

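In all alternatives run, the median of the members stayed below 0 in each comparison. It was -0.22 at 1 day with DESeq2 size factors and with exon reads, and -0.19 with the deposited RPKM. With library totals it was -0.25 at 2 days, and between 1 and 2 days it was -0.04 with 4 members lower; under this scaling the median of all genes shifted by 0.06 and 0.05. Leaving out 1 library gave medians of -0.22 to -0.20 at 1 day, -0.33 to -0.26 at 2 days and -0.11 to -0.04 between 1 and 2 days, the last without 2-day run 2, and 12 to 16, 26 to 34 and 5 to 8 members lower. Run numbers are shared by the groups; with the replicate block (mean of within-run folds) the counts were 12, 28 and 7 and the medians -0.20, -0.31 and -0.09, as without it. Over all genes, run agreement within groups was at most 1.36 on total and 1.12 on unique reads, and over the members at most 2.48 and 2.17, both at 2 days. Between 1 and 2 days the members below 0 numbered 39, and 30 to 42 under the alternatives. Ube2c passed 1.2-fold higher between 1 and 2 days with DESeq2 size factors (0.29), library totals (0.32), unique reads (0.29), exon reads (0.28) and RPKM (0.30). The 35 members with no shared exon bases and at least 80% unique reads, an alternative added after seeing the data, had medians of -0.20, -0.32 and -0.09. Calls of members near 1.2-fold (Dlgap5 against control, and Gas2l3, Anp32e and Cdca3 between times) are the least stable. With 1 sample a group, differences between mice are not measured.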

Other observations

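D-type cyclins and their kinases Cdk4 and Cdk6 act mainly before S phase. Of 12 genes for D-type cyclins, these kinases and inhibitors of such kinases, 3 were called lower and 3 higher at 1 day. At 2 days 7 were lower and 2 higher. For all genes tested the shares were 9.31% lower and 12.1% higher at 1 day, and 20.2% and 19.9% at 2 days. Ccnd3, the D-type cyclin typical of B-cell precursors, stood at 204.1 CPM in control, 147.0 at 1 day and 90.7 at 2 days (log2 folds of -0.47 and -1.17), and Cdk6, its kinase partner, at 55.2, 39.1 and 23.7 (-0.50 and -1.22). Ccnd1 was higher, at 208.6, 262.3 and 337.0 CPM (0.33 and 0.69). Among the inhibitors Cdkn1a, the p21 gene, was at 3.69 CPM in control, 7.89 at 1 day and 3.64 at 2 days, and Cdkn1c, the p57 gene, at 2.67, 8.11 and 7.16. Cdkn2a was at 11.1, 11.6 and 2.13 CPM, a log2 fold of -2.33 at 2 days.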
